A study of Mus musculus with 20 samples.

Results

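Protocadherins are cell surface proteins of the cadherin superfamily, and their genes were examined here in mouse embryonic stem cells, a culture derived from the early embryo that can form all tissues of the body. All protein-coding genes of the RNA-seq table with a symbol that starts with Pcdh were taken, which gave 68 of 29692 genes. They carry 67 symbols, since Pcdha11 is listed under 2 gene identifiers. Of these, 56 belong to the gene clusters alpha (14 genes), beta (21 genes) and gamma (21 genes), and 12 stand alone in the genome. The cells were grown in 10% fetal bovine serum with leukemia inhibitory factor and were sorted by flow cytometry on 2 pluripotency factors, Nanog and Sox2. State 3 was low in Nanog and low in Sox2, state 2 was low in Nanog and high in Sox2, and state 1 was high in both. The total population was the 4th group. The labels name neither the strain, the line nor a genetic change, and separate cultures are not stated for the libraries.

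The members of this family share cadherin repeats outside the cell, through which they bind a like molecule on a neighbouring cell. In the clusters, alpha and gamma genes each start with a variable exon of their own that encodes the outer part, the membrane span and the first part of the tail, and this exon is spliced to constant exons used by the whole cluster. Beta genes are single exons with no constant part. In neurons each cell switches on its own set of variable exons, which gives it a surface identity used in self-avoidance of its branches, while the C-type genes at the ends of the alpha and gamma clusters are chosen in another way. The non-clustered genes fall into delta-1 members, with a tail motif that binds a protein phosphatase, and delta-2 members, which have fewer cadherin repeats and several of which recruit the WAVE actin complex.

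RNA-seq covered 12 libraries, 3 per group, but the table holds 1 normalized value per gene and group, so that no spread between libraries can be given. A normalized value is a signal scaled by the authors, and about 48.0 M reads stood behind state 3, 60.4 M behind state 2, 55.4 M behind state 1 and 52.1 M behind the total population (M, 1e6). A gene listed at 0 may still have an expected count of up to about 3 reads at this depth. That is a value of 1.08 in state 3, 0.84 in state 2, 0.96 in state 1 and 0.99 in the total population. Differences are log2 ratios of value plus 1. A difference was called where the authors' EBSeq model, fitted over all 4 groups, gave a summed posterior probability of at least 0.95 to the patterns that set the 2 groups apart. Nanog stood at 439.96 in state 3, 743.19 in state 2, 4145.18 in state 1 and 2782.72 in the total population, and Sox2 at 1305.77, 3167.32, 4155.17 and 3954.50 in the same groups. Both genes thus followed the sort labels. The values come from sorted pools, in which more cells of a kind and more RNA per cell cannot be told apart.

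Calls among the protocadherin genes were all higher in the low-Nanog states, and most non-clustered genes but few clustered genes were called. Between state 3 and state 1, 16 of the 68 genes were called higher and 0 lower, where 11.4% of all genes were called higher and 9.01% lower. Of the 12 non-clustered genes 9 were called, and of the 56 clustered genes 7, a clustered share near that of all genes. Between state 2 and state 1, 9 genes were called higher and 0 lower, beside 7.11% of all genes called higher and 6.33% lower. Between state 3 and state 2, 6 genes were called higher and 0 lower, beside 5.41% and 3.19% of all genes. Low values matter for such shares: 36 of the 68 genes had a mean of at least 5 over the 4 groups, and among the 13747 protein-coding genes with that mean, 22.7% were called higher and 18.1% lower in state 3 against state 1. With that mean 15 of the 36 protocadherin genes were called higher, and 7 of the 28 clustered genes, again near the share of all such genes.

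The median difference was larger in the non-clustered genes than in the clusters, with ranges that overlapped. The median log2 ratio of the 12 non-clustered genes was 2.32 between state 3 and state 1, 1.68 between state 2 and state 1 and 0.94 between state 3 and state 2. The same medians were 0.64, 0.44 and 0.12 for the 56 clustered genes and 0.00 for all genes in each of the 3 comparisons. Within the clusters the median for state 3 against state 1 was 1.44 in alpha, 1.06 in beta and 0.37 in gamma. With a pseudocount of 5 in place of 1, the non-clustered medians were 1.46 for state 3 and 0.78 for state 2, each against state 1. The values of 10 of 12 non-clustered genes and of 30 of 56 clustered genes fell in the order state 3, state 2, state 1 from high to low. The share of all genes in this order is not given here, and genes of a cluster can share reads, so they are not separate observations.

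Marker sums of other cell types went both ways between state 3 and state 1. Those of primitive endoderm, fibroblast, trophoblast and neural markers were higher in state 3. The sums of paraxial mesoderm and endothelial markers were lower, although the median log2 ratio of each of these lists was above 0. Of protein-coding genes with a mean of at least 5, which not all markers reach, 22.7% were called higher and 18.1% lower. Of the 8 primitive endoderm markers 6 were called higher in state 3 than in state 1, with a summed value of 991.75 in state 3, 399.88 in state 2, 139.82 in state 1 and 222.03 in the total population. Of the 9 measured fibroblast markers 3 were called higher, all of them collagen genes, with sums of 1242.05 in state 3, 248.91 in state 2, 145.94 in state 1 and 247.40 in the total population, and Dcn was at 0 in state 1. Of the 8 trophoblast markers 6 were called higher and 1 lower, with sums of 1285.87, 804.48, 1078.40 and 993.09 in the same order. Of the 11 measured neural markers 3 were called higher, with sums of 4483.72, 3043.42, 4019.35 and 3786.48, and Dcx was at 0 in state 1. Of the 10 paraxial mesoderm markers 2 were called higher and 0 lower, with sums of 892.26, 978.48, 1449.87 and 1254.60. Their median log2 ratio was 0.19. Tcf15, the marker with the highest values and not called, had 697.55 in state 3 and 1340.19 in state 1. Msgn1 was at 0 in state 3 and state 1, and Hes7 was at 2.96 in state 3 and 0 in state 1. Of the 7 measured endothelial markers 2 were called higher and 1 lower, with sums of 523.52, 871.85, 1067.78 and 921.14. Their median log2 ratio was 0.24, and Pecam1, the marker called lower, had 162.35 in state 3 and 781.52 in state 1. Of the 7 pluripotency markers 5 were called lower, with sums of 23469.4, 32757, 53326.6 and 44796.8. The part of these cell types in the protocadherin values was not tested.

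All 4 delta-1 genes were called higher in state 3 than in state 1. Pcdh1, an adhesion protein of airway epithelium among other tissues, had a normalized value of 2262.95 in state 3, 1090.00 in state 2, 247.29 in state 1 and 497.35 in the total population. Its log2 ratio was 3.19 between state 3 and state 1, 2.14 between state 2 and state 1 and 1.05 between state 3 and state 2, each with a posterior of 1.000 in the authors' deposited table. Pcdh1 and Pcdh18 were the 2 members called lower in state 1 than in the total population, a comparison in which 0 members were called higher and 0.707% of all genes were called higher and 1.27% lower. Pcdh1 made up 84.6% of the summed non-clustered values in state 3 and 83.6% in state 1. The sum of all 12 genes was 2675.07 in state 3, 1257.33 in state 2, 295.92 in state 1 and 596.04 in the total population, which is 9.04 times as high in state 3 as in state 1 (95% interval 8.44 to 9.69, counting error only). Without Pcdh1 the sums were 412.12, 167.33, 48.63 and 98.69, and state 3 was 8.47 times as high as state 1.

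The other delta-1 genes were near or at the detection limit in state 1. Pcdh7, at 57716145 to 58133236 on chromosome 5 (GRCm38.p6), had 59.77 in state 3, 7.15 in state 2 and 4.79 in the total population and was listed at 0 in state 1. It was the 1 member to which the authors' model gave a posterior of at least 0.95 for state 3 apart from state 2 and state 1. State 3 was called higher than state 2 at a log2 ratio of 2.90. Between state 2 and state 1 the log2 ratio was 3.03 with a posterior of 0.000, which is not read as equal expression. Pcdh11x, an X-linked gene of brain, had 27.03 in state 3, 3.99 in state 2, 0.33 in state 1 and 1.36 in the total population, and was called in state 3 against state 1 and against state 2 (posterior 0.997). State 1 stood at about 1 read. Pcdh9 had 12.92 in state 3, 6.36 in state 2, 2.25 in state 1 and 3.07 in the total population, with a log2 ratio of 2.10 and a posterior of 0.999 for state 3 against state 1. Its state 2 value was called different from neither neighbour (posterior 0.694 with state 1 and 0.550 with state 3).

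All 5 delta-2 genes were also called higher in state 3 than in state 1, and 3 of them already in state 2. Pcdh18, whose product binds the adaptor Dab1, had 86.08 in state 3, 26.92 in state 2, 0.65 in state 1 and 15.14 in the total population. Every step between the states was called, at a log2 ratio of 4.08 between state 2 and state 1 and 1.64 between state 3 and state 2. Pcdh17, which organises presynaptic sites and axon bundles, had 124.65 in state 3, 63.15 in state 2, 17.73 in state 1 and 35.51 in the total population. State 2 was called against state 1 (log2 ratio 1.78, posterior 0.999), and the posterior for state 3 against state 2 was 0.729. Pcdh10, known from axon growth in the forebrain, had 7.44 in state 3, 5.51 in state 2, 0.96 in state 1 and 1.03 in the total population, and both low-Nanog states were called against state 1. The state 2 calls of Pcdh18 and Pcdh17 ended with state 1 and the total population exchanged in the pattern order (posterior 0.862 and 0.909), and that of Pcdh10 lay just under a threshold of 0.99 (0.9898).

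Pcdh8 and Pcdh19 had a smaller range. Pcdh8, the paraxial protocadherin of somite formation, had 32.17 in state 3, 18.30 in state 2, 8.35 in state 1 and 11.40 in the total population, a log2 ratio of 1.83 for state 3 against state 1. Pcdh19, the gene mutated in a human X-linked epilepsy of heterozygous females, had 54.69 in state 3, 32.16 in state 2, 17.06 in state 1 and 23.99 in the total population, a log2 ratio of 1.62. For both, state 2 lay between its neighbours and was called different from neither. In each of the 9 called delta-1 and delta-2 genes the value was highest in state 3, next in state 2, and lowest in state 1, and the total population lay within the range of the states.

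The promoters of the delta-2 genes are shown because all 5 genes were called higher in state 3 and because their sequences share a short element, which most other member promoters hold too. The RefSeq promoter table (GRCm38.p6, 250 bases before to 50 after a transcript start) held 10 promoters of 9 member symbols, all non-clustered. The element is ATTGG, the reverse complement of the CCAAT box, and it is in capitals in these stretches of 30 bases, each read 5′ to 3′ along its gene. The stretches come from chr3:45378338-45378367 (plus strand) for Pcdh10, chr14:84443495-84443524 (plus) for Pcdh17, chr3:49757329-49757358 (minus) for Pcdh18, chrX:133689039-133689068 (minus) for Pcdh19 and chr14:79771361-79771390 (minus) for Pcdh8.
Pcdh10: ctcctcggcgATTGGttggcagaatgaggg
Pcdh17: ccccacgccgATTGGctggcagagaatcag
Pcdh18: aagctcgctgATTGGctggaagcgattcaa
Pcdh19: ctgcgcgctgATTGGctagtgcctggcgta
Pcdh8: ctaagcgaccATTGGctggccccttccagt
The first base of the element lies 50 bases before the transcript start in Pcdh10, 58 in Pcdh17, 32 in Pcdh18, 65 in Pcdh19 and 68 in Pcdh8. For Pcdh18 and Pcdh19 the RefSeq gene record begins further upstream than the start used here. The same holds for Pcdh7, Pcdh9 and Pcdh15 among the other member promoters counted below. The Pcdh15 record begins at 73096277 on chromosome 10, while its promoter begins at 73821617, inside the gene. The 2 promoters of Pcdh9 overlap and are counted separately.

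The longer motif ATTGGNTGG, on either strand, was present in 4 of the 5 delta-2 promoters, with Pcdh19 the exception, and in 2.25% of 21262 promoters of protein-coding genes. CCAAT on either strand, which the longer motif contains, was present in 5 of 5 delta-2 promoters, in 9 of the 10 member promoters and in 38.2% of all. Pcdh7 was the promoter without it. These letters were chosen after the sequences had been read, so the shares describe these promoters and test nothing. The motif CNAGNNGGC, a core of the CTCF site named for the clustered genes, was present in Pcdh15 and Pcdh17 only, 2 of 10 member promoters, against 23.6% of all. A GC box, GGGCGG on either strand, was present in 4 of the 10 and in 46.2% of all, and TATAAA in 2 of the 10, Pcdh8 and Pcdh15, and in 12.6% of all.

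The whole 250 bases before the start are printed for Pcdh17 and Pcdh8, which differ in make-up: 21 CpG dinucleotides and no TATAAA in Pcdh17, and 11 CpG with TATAAA beginning 30 bases before the start in Pcdh8. They are chr14:84443313-84443562 (plus strand) and chr14:79771313-79771562 (minus strand) in GRCm38.p6 from RefSeq, with CCAAT or ATTGG in capitals.
Pcdh17: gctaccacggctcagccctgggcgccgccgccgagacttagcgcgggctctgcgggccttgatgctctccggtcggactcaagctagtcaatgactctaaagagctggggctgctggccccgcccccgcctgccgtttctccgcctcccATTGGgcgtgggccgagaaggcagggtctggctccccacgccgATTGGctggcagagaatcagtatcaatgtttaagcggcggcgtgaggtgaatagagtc
Pcdh8: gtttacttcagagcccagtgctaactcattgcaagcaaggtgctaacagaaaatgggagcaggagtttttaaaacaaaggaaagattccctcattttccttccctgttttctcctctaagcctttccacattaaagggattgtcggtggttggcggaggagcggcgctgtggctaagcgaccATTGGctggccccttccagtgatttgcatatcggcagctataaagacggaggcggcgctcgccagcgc
Counted over 300 bases, the member promoters had a median of 18 CpG against 13 in all promoters and a median G and C content of 62.3% against 56.3%.

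**Figure D1:**
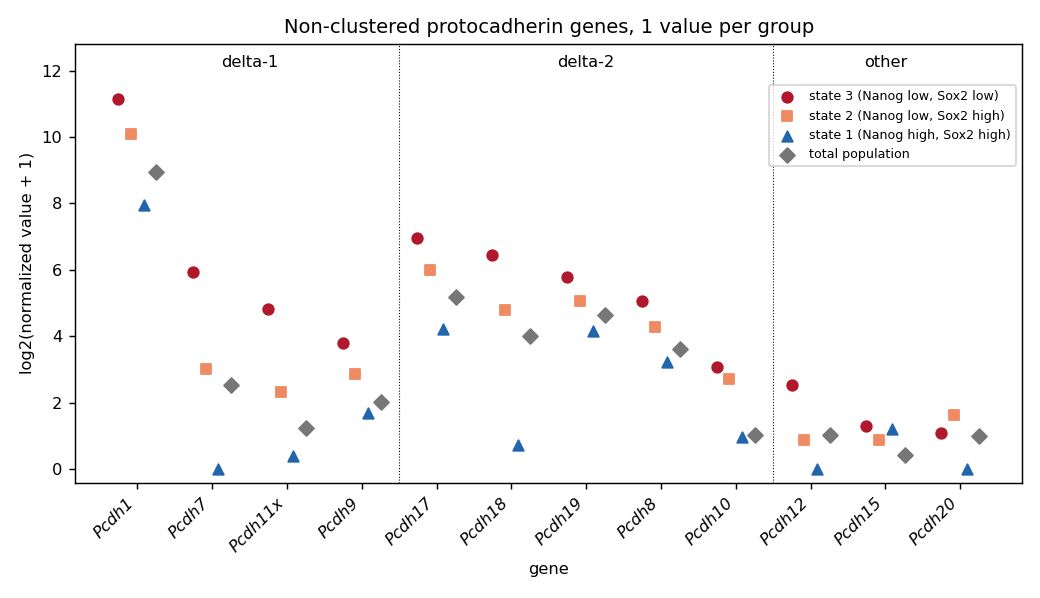
Normalized values of the 12 non-clustered protocadherin genes on a log2(value + 1) axis, 1 point per group, with genes sorted into delta-1, delta-2 and the others. State 3 is above state 1 in all 12 genes and state 2 lies between them in 10; no error bars are drawn because the table holds 1 value per group.

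The 3 remaining non-clustered genes were close to the detection limit and were not called in any comparison. Pcdh12, an endothelial and trophoblast protocadherin, had 4.78 in state 3, 0.85 in state 2 and 1.05 in the total population, and was listed at 0 in state 1. Pcdh20 had 1.13 in state 3, 2.09 in state 2 and 1.01 in the total population and was also listed at 0 in state 1. Pcdh15, part of the tip link of hair cells of the inner ear, had 1.46 in state 3, 0.85 in state 2, 1.30 in state 1 and 0.34 in the total population. Their posteriors near 0 are not read as equal expression.

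The clustered genes lie on chromosome 18, in the region from 36930285 to 38284401 (GRCm38.p6) that also ends with Pcdh1 and Pcdh12. Reads of the constant exons belong to every gene of the alpha or gamma cluster, and the authors' counting had to divide them, while beta genes are close copies of each other. Values of single clustered genes are therefore uncertain, and sums over a cluster are given beside them. The gamma cluster gave a sum of 3235.66 in state 3, 2938.08 in state 2, 2296.15 in state 1 and 2626.74 in the total population. State 3 was 1.41 times as high as state 1 (95% interval 1.37 to 1.45) and state 2 was 1.28 times as high as state 1 (1.24 to 1.32). These intervals, like those that follow, cover counting error alone and were made from approximate reads.

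Every one of the 21 gamma genes had a value above 0 in all groups, and all 21 had a higher value in state 3 than in state 1. Of the 13747 protein-coding genes with a mean of at least 5, 6775 had a higher value in state 3. Since reads of the constant exons were divided among the gamma genes, these are not 21 separate observations. Of the 21 gamma genes 5 were called higher, near the 22.7% of protein-coding genes with a mean of at least 5. The median log2 ratio over the cluster was 0.37 between state 3 and state 1, 0.35 between state 2 and state 1 and 0.00 between state 3 and state 2. State 2 was above state 3 in 10 of the 21 genes.

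Pcdhgc3, a C-type gene that influences dendrite branching, had the largest log2 ratio of the 21 gamma genes for state 3 against state 1, and it was the 1 of the 5 C-type genes called. It had 613.80 in state 3, 364.32 in state 2, 289.22 in state 1 and 293.12 in the total population. State 3 was called higher than state 1 (log2 ratio 1.08) and than state 2 (0.75, posterior 0.992), and state 2 against state 1 had a posterior of 0.142. Its share of the summed gamma value, not corrected for length, was 19.0% in state 3, 12.4% in state 2, 12.6% in state 1 and 11.2% in the total population. Without Pcdhgc3, the summed gamma value of state 3 was 1.31 times that of state 1 and 1.02 times that of state 2 (95% interval 0.988 to 1.05). The other gamma C-type genes were not called. Pcdhgc5, which takes part in inhibitory synapses, had 82.08 in state 3, 54.85 in state 2, 59.72 in state 1 and 68.81 in the total population (posterior 0.694 for state 3 against state 1). Pcdhgc4, needed for survival of cortical interneurons in mice, had 50.91 in state 3, 47.20 in state 2, 41.81 in state 1 and 45.36 in the total population (posterior 0.108).

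The values of the called alternate gamma genes did not share a single order of states, but only Pcdhga10 was called between state 3 and state 2. The posterior for that step was 0.033 for Pcdhga7, 0.074 for Pcdhga8 and 0.003 for Pcdhgb4, so different orders are not shown. Pcdhga10 had 202.44 in state 3, 155.89 in state 2, 136.45 in state 1 and 146.92 in the total population and, like Pcdhgc3, was called in state 3 against both other states. Pcdhga7 had 139.24 in state 3, 130.71 in state 2, 79.64 in state 1 and 100.50 in the total population, and both low-Nanog states were called against state 1, at log2 ratios of 0.80 and 0.71. Pcdhga8 had 197.73 in state 3, 229.04 in state 2, 153.23 in state 1 and 156.57 in the total population, with the highest value in state 2. Pcdhgb4 had 128.48 in state 3, 129.87 in state 2, 86.55 in state 1 and 113.13 in the total population, and its low-Nanog states had nearly the same value. For Pcdhga8 and Pcdhgb4 too, state 3 and state 2 were each called higher than state 1, but both calls of Pcdhgb4 ended with the exchanged pattern order (posterior 0.245 and 0.243). Other gamma genes were not called. Pcdhga11 had 234.30 in state 3, 233.80 in state 2, 190.56 in state 1 and 200.68 in the total population (posterior 0.666 for state 3 against state 1). Pcdhgb5 had 179.08 in state 3, 191.92 in state 2, 150.74 in state 1 and 162.08 in the total population, and Pcdhgb7 had 127.93, 117.38, 105.79 and 113.76 in the same groups, both with a posterior of 0.

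**Figure D2:**
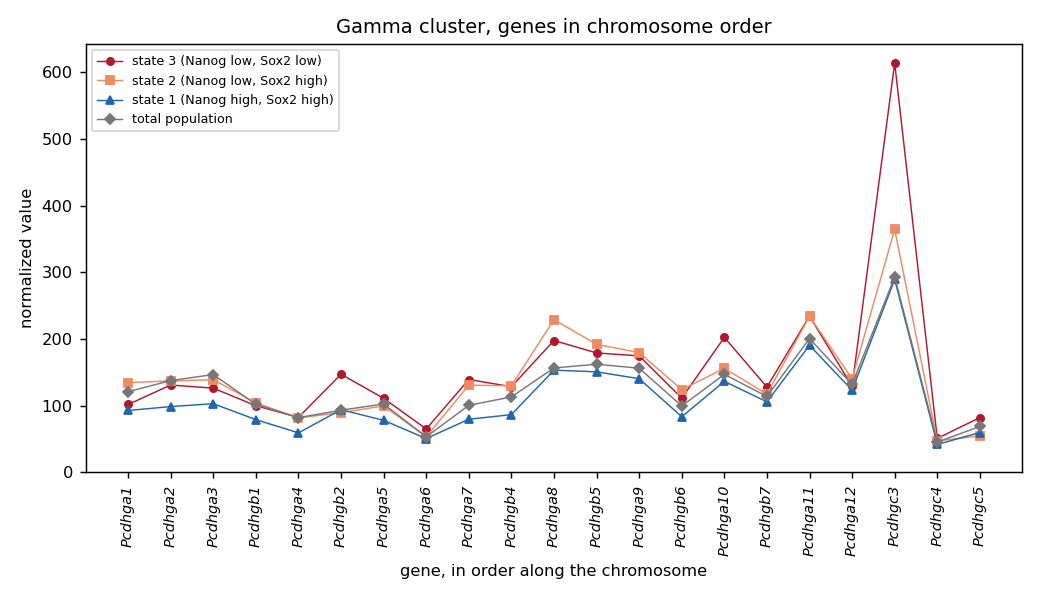
Normalized values of the 21 gamma cluster genes in chromosome order, 1 line per group. The lines run close together, with state 1 below state 3 in all 21 genes, and Pcdhgc3 shows the widest gap, 613.80 in state 3 against 289.22 in state 1; the lines join neighbouring genes for reading only.

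In the alpha cluster values were low and the ratio of the sums was larger. The sum was 78.86 in state 3, 61.31 in state 2, 18.75 in state 1 and 25.77 in the total population, 4.21 times as high in state 3 as in state 1 (95% interval 3.12 to 5.67), and 3.27 times as high in state 2 as in state 1 (2.43 to 4.41). Pcdha6 was the single alpha gene called, with 11.38 in state 3, 7.57 in state 2, 1.03 in state 1 and 3.24 in the total population, at log2 ratios of 2.61 and 2.08 for state 3 and state 2 against state 1. Its state 2 call had a posterior of 0.988 and ended at a threshold of 0.99. Both Pcdha11 entries came close, with 8.92 and 8.05 in state 3, 5.34 and 6.23 in state 2, 1.45 and 2.00 in state 1 and 2.80 and 3.08 in the total population, at posteriors of 0.872 and 0.907. Pcdhac2, a C-type gene that spaces serotonergic axons, had 14.21 in state 3, 7.62 in state 2, 0.77 in state 1 and 3.01 in the total population. Its log2 ratio of 3.10 was above that of Pcdha6, yet its posterior was 3.6e-05. Pcdha12 had 10.15 in state 3, 8.07 in state 2, 3.77 in state 1 and 4.40 in the total population and was not called either.

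In the beta cluster Pcdhb18 was the 1 gene called. It had 11.75 in state 3, 9.12 in state 2, 2.91 in state 1 and 4.45 in the total population, at log2 ratios of 1.71 for state 3 and 1.37 for state 2 against state 1. The state 2 call, with a posterior of 0.974, also ended at a threshold of 0.99. The summed beta value was 98.89 in state 3, 68.85 in state 2, 31.37 in state 1 and 44.64 in the total population, 3.15 times as high in state 3 as in state 1 (95% interval 2.50 to 4.02) and 1.44 times as high in state 3 as in state 2 (1.21 to 1.71). Of the 21 beta genes, 18 had a higher value in state 3 than in state 1. Pcdhb14 had 14.73 in state 3, 8.59 in state 2, 8.74 in state 1 and 7.52 in the total population, and Pcdhb22 had 12.08, 11.53, 4.50 and 5.80 in the same groups. Neither was called.

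Because beta genes are single exons, their values could be set on a scale per kilobase of RefSeq span and compared along the cluster. The stretch nearer the alpha cluster, Pcdhb1 to Pcdhb13 (12 genes), had a median of 0.681 per kilobase in state 3, 0.184 in state 2, 0.146 in state 1 and 0.190 in the total population. The stretch from Pcdhb14 to Pcdhb22 (9 genes) had 1.47 in state 3, 1.24 in state 2, 0.407 in state 1 and 0.737 in the total population. The first stretch held genes at both ends of the range: Pcdhb2 reached 4.37 per kilobase in state 3, above Pcdhb14 with 4.28 and Pcdhb22 with 3.94. Pcdhb2 had a normalized value of 12.13 in state 3, 8.31 in state 2, 0.97 in state 1 and 1.38 in the total population. The division into stretches was made after the values had been seen, and it is a description.

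**Figure D3:**
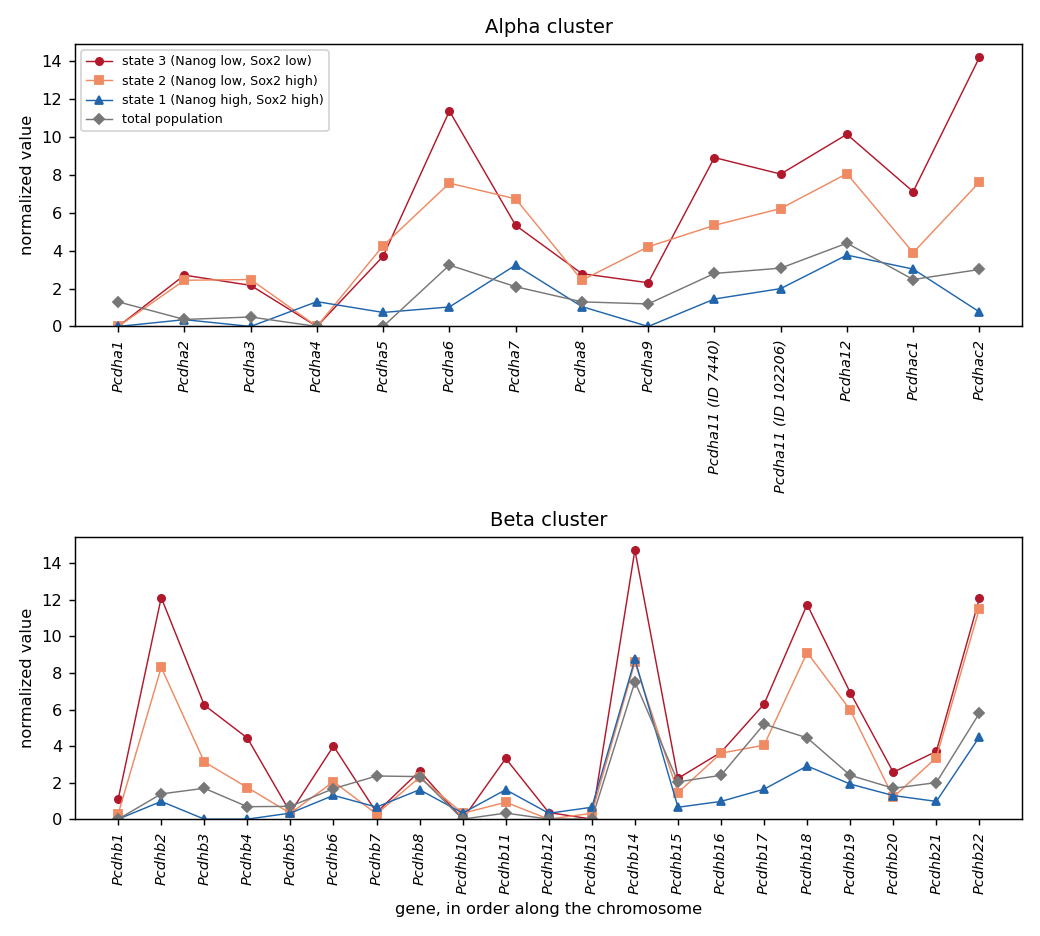
Normalized values of the 14 alpha cluster entries and the 21 beta cluster genes in chromosome order, 1 line per group. State 3 and state 2 stand above state 1 at Pcdha6, Pcdhac2, Pcdhb2 and Pcdhb18, while several genes of both clusters lie near 0 in all 4 groups; the lines join neighbouring genes for reading only.

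The size of a ratio and the authors' posterior often parted in the clusters. Of the 56 clustered genes, 25 were at least 2 times as high in state 3 as in state 1, or above 0 in state 3 and listed at 0 in state 1, and 3 of these 25 were called, while 15 had a posterior under 0.01. Of the 12 non-clustered genes, 11 met the same condition, of which 9 were called and 2 had a posterior under 0.01. The same counts are not given here for all genes. A mean of at least 5 was reached by 28 of the 56 clustered and 8 of the 12 non-clustered genes, and the part of low values in this contrast was not tested. A posterior of any difference under 0.0001 was given to 27 of the 56 clustered genes and to 47.3% of all genes. Among genes with a mean of at least 5, it was given to 8 of 28 clustered genes (28.6%), to 0 of 8 non-clustered genes and to 12.0% of protein-coding genes. A posterior near 0 is therefore not read here as equal expression.

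**Figure D4:**
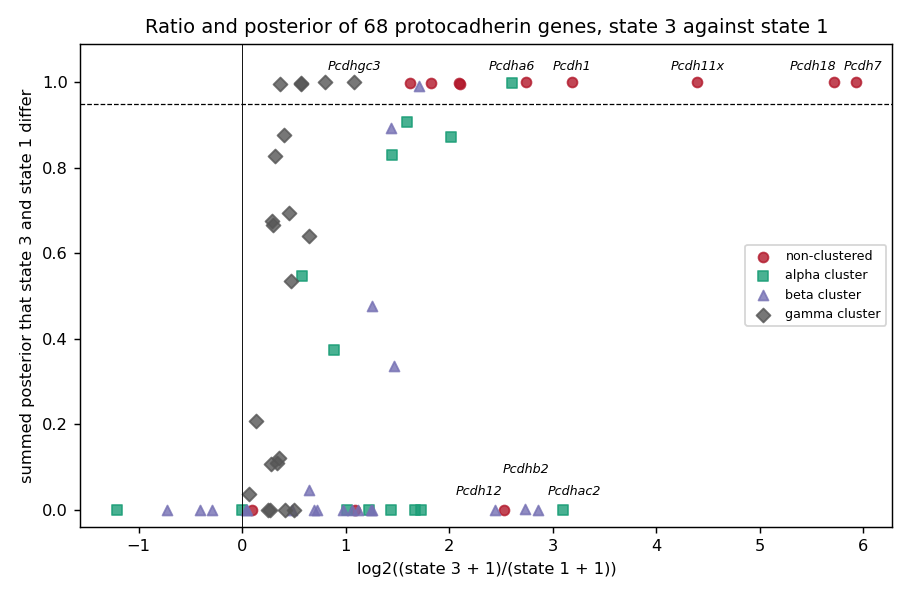
Log2 ratio of state 3 against state 1 (x axis) and the summed posterior that these states differ (y axis) for the 68 genes, with the threshold of 0.95 dashed. The 9 called non-clustered genes lie above the line at ratios of 1.62 or more, the called gamma genes above it at 0.37 to 1.08, and Pcdhac2, Pcdhb2 and Pcdh12 lie near 0 in spite of ratios of 2.53 to 3.10.

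Most genes that lie between and beside the clusters were not called. The region held 7 measured protein-coding genes that do not overlap a protocadherin gene. In state 3 against state 1, 1 was called higher and 1 lower, and their median log2 ratio was -0.06. These counts stand beside 22.7% and 18.1% of protein-coding genes with a mean of at least 5. Arap3, a regulator of small GTPases, was the gene called higher, with 469.81 in state 3, 207.20 in state 2, 87.72 in state 1 and 138.14 in the total population. Diaph1, a formin that builds actin filaments, was the gene called lower, with 2138.59 in state 3, 2431.02 in state 2, 2841.17 in state 1 and 2817.73 in the total population. Taf7, a general transcription factor gene between the beta and gamma clusters, had 1080.31 in state 3, 1324.15 in state 2, 1261.19 in state 1 and 1263.46 in the total population and was not called.

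Of 21 regulators of the clusters, 3 were called higher and 9 lower in state 3 than in state 1. Of protein-coding genes with a mean of at least 5, 22.7% were called higher and 18.1% lower in this comparison. The DNA methyltransferase gene Dnmt3b had 7342.32 in state 3, 8873.82 in state 2, 3139.06 in state 1 and 4339.56 in the total population (log2 ratio 1.23 for state 3 and 1.50 for state 2 against state 1). Ctcf, which loops promoters of the clusters to their enhancers, had 3268.19 in state 3, 3822.49 in state 2, 4303.56 in state 1 and 4179.16 in the total population, a log2 ratio of -0.40 with a posterior of 0.993. Trim28, a corepressor that acts with the histone methyltransferase Setdb1, was called lower at a log2 ratio of -0.84, and the cohesin subunit genes went both ways, with Stag2 at 0.61 and Rad21 at -0.53. Rest, a repressor of neuronal genes, was called lower at -0.59. None of the 21 was called between state 3 and state 2. Of the 13747 protein-coding genes with a mean of at least 5, 1517 were called higher and 885 lower there.

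Of 17 intracellular partners, 7 were called higher and 1 lower in state 3 than in state 1, with a median log2 ratio of 0.05. The shares of protein-coding genes with a mean of at least 5 were again 22.7% and 18.1%. Marcks, an actin-binding protein downstream of the gamma tails, had 1550.68 in state 3, 998.48 in state 2, 388.77 in state 1 and 503.56 in the total population. Cyfip2, of the WAVE complex that delta-2 tails recruit, had a log2 ratio of 1.32, the kinase gene Fyn 1.14, and Dab1, the adaptor bound by Pcdh18, 1.05. Wasf1, also of the WAVE complex, was the partner called lower, at -0.21. Of the other listed WAVE genes, Abi2 was called higher at 0.30, and Nckap1, Brk1, Cyfip1, Abi1 and Wasf2 were not called. Among genes for the enzymes that cut protocadherins at the membrane, Adam10 was called higher in state 3 than in state 1 and had 625.45 in state 3, 484.56 in state 2, 312.51 in state 1 and 388.88 in the total population. Ncstn was also called higher, at a log2 ratio of 0.39.

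Large cadherins of other families were also called in both directions. Of 9 Fat, Dchs and Celsr genes, 5 were called higher and 2 lower in state 3 than in state 1. Beside them stand 22.7% and 18.1% of protein-coding genes with a mean of at least 5. Fat4 had 153.02 in state 3, 49.75 in state 2, 3.21 in state 1 and 14.45 in the total population, and Dchs1, whose product is its binding partner, had 182.31, 81.10, 26.12 and 45.08 in the same groups. Fat3 had a log2 ratio of 4.97 and Dchs2 of 1.95. Celsr1 and Celsr3, planar polarity genes, were the genes called lower, at -0.52 and -0.50.

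The total population lay within the range of the states for 11 of 12 non-clustered and 46 of 56 clustered genes. A mixture of the states would lie in that range by construction, and the share over all genes is not given here. Pcdh18 showed the widest gap to state 1, with 0.65 in state 1 against 15.14 in the total population, a log2 ratio of -3.29, and Pcdh1 had a log2 ratio of -1.01. In the gamma cluster 20 of 21 genes had a lower value in state 1 than in the total population, none of them called, with a median log2 ratio of -0.15. The sources used here do not give the share of each state in the total population.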

How the data were processed

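RNA was taken by Trizol from sorted cells. RNA-seq libraries were rRNA-depleted and marked for strand with dUTP, and adapters were ligated for the small RNA libraries, per the labels' protocols. The tools RSEM 1.2.30 and STAR 2.4.1d, and mm10 and GRCm38 as builds, are listed without role or order in the submitters' processing notes. The authors deposited 1 normalized signal per feature and group, per the file headers; the sources used here do not give how the 3 RNA-seq or 2 small RNA libraries of a group were merged. The authors deposited a score per feature for each of 15 EBSeq patterns of equal and unequal groups, a posterior probability, per the file headers. The deposited table does not spell out the patterns; they were read in column order (state 3, state 2, state 1, total population), under which 94.4% of 1453 genes with a clear pattern had nearer values in groups set equal, against 90.8% with state 1 and the total population exchanged.

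The posteriors of all patterns that set 2 groups apart were summed and called at 0.95 or more over 29692 genes, with the direction from the values. Log2 ratios used a pseudocount of 1. Because 1 value per group is held, count tests, replicate blocks and tests over libraries were not run, no p-value was computed, and the posteriors may measure technical spread only. The commonest low value in each column was taken as 1 read to estimate depth, and intervals of ratios of sums are 95% intervals on the reads so estimated. The pattern sums were tested on simulated data, which checks the summing and cannot test the pattern order or the deposited posteriors. The members, gene lists and named genes were chosen with earlier results of these data known. Named genes were all non-clustered genes, every clustered gene called between 2 states, the 2 genes with the highest mean of each clustered set, and up to 4 called genes of each other list. Further genes (Pcdhac2, Pcdhgc4, Pcdha11, Pcdhb2, Arap3, Diaph1, Taf7, Ctcf, Rad21, Wasf1, Abi1, Abi2, Nckap1, Brk1, Cyfip1, Wasf2, Celsr1, Celsr3, Tcf15, Hes7) were named after their values were seen. Promoter sequences are from RefSeq (GRCm38.p6), with 9 of 67 symbols matched. Calculations used Python 3.11.15, pandas 2.3.3, numpy 2.4.6 and scipy 1.17.1, and plots matplotlib 3.10.9. The count over the list of membrane-cutting enzymes, and 1 gene of it, are not reported here.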

Additional observations from a re-analysis of the deposited data

Results flagged for a closer look

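Small RNA-seq, which the comparisons above do not use, listed 47 protocadherin genes in 8 libraries, 2 per group, with fragments that carry gene names. The 47 genes summed to 50.13 in state 3, 33.51 in state 2, 31.37 in state 1 and 29.57 in the total population, and 0 of them had a posterior of any difference of 0.95 or more in the authors' deposited table (highest 0.305, Pcdhgc4). Values are listed here where they were above the total population and above the worth of 3 reads (0.93 in state 3, 1.11 in state 2 and 1.41 in state 1) in at least 2 states. Pcdh1 had 17.25 in state 3 and 5.82 in state 2, beside 1.64 in state 1 and 4.31 in the total population. Pcdh17 had 0.97 in state 3 and 4.58 in state 2, and was listed at 0 in the total population. Pcdhga12 had 3.19 in state 2 and 1.90 in state 1, and was listed at 0 in state 3 and the total population. Pcdhga6 had 1.43 in state 3 and 1.73 in state 2, and was listed at 0 in state 1 and the total population. Pcdhgb4 had 4.72 in state 3, 3.06 in state 2 and 1.64 in state 1, beside 1.41 in the total population. In the total population 3 reads were worth 2.22, and Pcdh1 was the 1 listed gene with a value above this. For the other listed genes the total population is therefore a group below that worth. A single value per group gives no replicate check.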

How the results depend on the processing

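Counts of called protocadherin genes and of all called genes stayed within 1.5 times of the reported counts at posterior thresholds of 0.90 and 0.99, with state 1 and the total population exchanged in the pattern order, with a minimum mean of 5, and with all features named Pcdh. Between state 2 and state 1, however, 6 of the 9 protocadherin calls were left at 0.99, without Pcdh10, Pcdha6 and Pcdhb18, and 6 with the exchanged order, without Pcdh17, Pcdh18 and Pcdhgb4; the exchanged order also ended the Pcdhgb4 call between state 3 and state 1, leaving 15 of 16. A pseudocount of 5 gave medians for state 3 against state 1 of 0.44 in clustered and 1.46 in non-clustered genes, and 0.78 for state 2 against state 1 in non-clustered genes, since it weighs on low values by construction. Uncalled ratios turned in sign for Pcdhb14 in state 2 against state 1 (0.038 with values divided by the column total) and Pcdhga11 in state 3 against state 2 (-0.028 by column total and -0.00036 by median-of-ratios rescaling). Of alternatives chosen after the data were seen, dividing by the column total gave a gamma ratio of sums of 1.34 for state 2 against state 1, and leaving out Pcdh1 gave non-clustered ratios of 3.44 between state 2 and state 1 and 2.46 between state 3 and state 2. In all, 379 values were labelled the same, 8 moved and 3 turned in sign. For ratios of single named genes only a turn in sign was counted, so the label sets no limit on their size. With a pseudocount of 5, the log2 ratio of state 3 against state 1 went from 2.11 to 1.06 for Pcdh10. That of Pcdh18 went from 5.72 to 4.01, and both were labelled the same.

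No paired analysis was possible because the tables hold 1 value per group, so the shared replicate letters carry no values; for the same reason leaving out each replicate in turn was not run. Depth limits the alpha and beta genes and Pcdh12, Pcdh15 and Pcdh20, whose state 1 values are often within a few reads of 0.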
